A study of Homo sapiens and Mus musculus with 20 samples.

Results

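GPC5 and GPC6 are neighbouring glypican genes on the long arm of human chromosome 13, and they were examined here for the sites at which the chromatin protein Satb1 was recovered from MCF10A cells. In the hg19 (GRCh37) build GPC5 (ENSG00000179399.16_9) spans chr13:92050875-93525935 and GPC6 (ENSG00000183098.12_8) spans chr13:93879060-95060274, both on the plus strand. Each gene was taken with 100 kb on either side, which gave windows of 1.68 Mb and 1.38 Mb that do not overlap. The pair was chosen by a measured value, the fold enrichment of the strongest N-C1 site, which lies in a GPC6 intron, so the enrichment of that site and of its neighbours is given as a description and was not tested. The pair makes up 2 of 20136 protein-coding genes of the annotation, and 146 of the 76660 sites obtained when the 5 ChIP-seq peak lists were merged fell in the windows, 90 at GPC5 and 56 at GPC6.

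MCF10A, an established human line of mammary epithelial origin, does not make Satb1 of its own, and every Satb1 form was supplied to it as a GFP fusion from an integrated lentiviral vector. The paper names antibodies against GFP and against Satb1 for its genomic work, without listing which was used for each library. The forms were full-length Satb1 (FL), Satb1 without its homeodomain (∆HD), and the N-terminal domain with the CUT1 domain (N-C1), and FL cells were also taken after 2 h with camptothecin, an inhibitor of topoisomerase I, or with ICRF-193, an inhibitor of topoisomerase II. ATAC-seq, which marks DNA that a transposase can reach, was available for native MCF10A cells and for cells expressing Satb1. These 7 peak lists, 1 per condition, came from a series of 20 samples. With 1 list per condition there is no replicate check on any value below, and no test of a difference between conditions was possible.

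The whole lists held 22877 (FL), 50537 (∆HD), 62856 (N-C1), 24475 (camptothecin) and 37350 (ICRF-193) peaks, and the ATAC lists held 175989 (native) and 206170 (Satb1 expressed). Depth was not given for each list, so the number of peaks cannot be compared between lists as a measure of binding, and a site missing from a list lay below that list's threshold and is not shown to be unbound. Fold enrichment is the height of a peak over its local background as given by MACS2. The ChIP lists were called against input DNA, for which the series names a single MCF10A library, so their values are set side by side with the place of each peak in its own list. The promoters of 8 of 8 basal mammary epithelial markers (KRT5, KRT14, KRT17, TP63, CDH3, EGFR, LAMB3 and ITGB4) carried an ATAC peak in both ATAC lists. Of 6 lymphocyte markers, LCK and CD79A carried a promoter peak in both lists and CD4 in the list with Satb1, while CD3E, CD3D and PTPRC had none. The share of all promoters with an ATAC peak was not computed, so these counts are a description and not a test of cell identity.

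Glypicans are heparan sulfate proteoglycans held to the outer cell surface by a lipid anchor, where their sugar chains bind Wnt, Hedgehog and fibroblast growth factor ligands. GPC5 and GPC6 are among the long genes of the genome, with short coding exons scattered between very large introns. Satb1 is a nuclear protein that oligomerizes through its N terminus and contacts A/T-rich DNA through its CUT domains and homeodomain.

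The sequences shown are those of the sites at place 1 or 2 of their gene by N-C1 or FL fold, and they show how differently consensus matches can be arranged. The Satb1 consensus searched was CTAATAA or CTAATAG or CTATTAA or CTATTAG or TTAATAA or TTAATAG or TTATTAA or TTATTAG. The set of 8 words is its own reverse complement, so a single pass covers both strands, and matches may overlap. The 200 bases of each site that hold the most matches are printed from the plus strand of hg19, with the matches in capitals. The first lies in GPC6 intron 1 (chr13:94070683-94070882), the second in GPC6 intron 5 (chr13:94949107-94949306), the third in GPC5 intron 2 (chr13:92156548-92156747), the fourth in GPC5 intron 3 (chr13:92349881-92350080) and the last, with few matches, again in GPC5 intron 2 (chr13:92187937-92188136).
GPC6 +192 kb: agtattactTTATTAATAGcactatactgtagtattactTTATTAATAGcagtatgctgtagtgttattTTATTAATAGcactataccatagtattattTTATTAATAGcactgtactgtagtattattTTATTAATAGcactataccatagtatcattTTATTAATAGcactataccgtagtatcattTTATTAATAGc
GPC6 +1070 kb: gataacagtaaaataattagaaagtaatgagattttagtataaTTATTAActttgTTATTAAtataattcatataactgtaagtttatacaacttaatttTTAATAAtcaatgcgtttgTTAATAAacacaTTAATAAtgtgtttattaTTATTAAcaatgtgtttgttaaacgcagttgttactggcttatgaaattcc
GPC5 +106 kb: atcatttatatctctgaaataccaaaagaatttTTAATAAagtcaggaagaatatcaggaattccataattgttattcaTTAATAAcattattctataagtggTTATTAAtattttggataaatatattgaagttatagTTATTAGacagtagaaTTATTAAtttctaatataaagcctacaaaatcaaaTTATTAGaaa
GPC5 +299 kb: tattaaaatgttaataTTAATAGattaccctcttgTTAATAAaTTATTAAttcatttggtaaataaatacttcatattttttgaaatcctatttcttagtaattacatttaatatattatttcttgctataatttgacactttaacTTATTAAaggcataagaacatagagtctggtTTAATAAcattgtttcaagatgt
GPC5 +137 kb: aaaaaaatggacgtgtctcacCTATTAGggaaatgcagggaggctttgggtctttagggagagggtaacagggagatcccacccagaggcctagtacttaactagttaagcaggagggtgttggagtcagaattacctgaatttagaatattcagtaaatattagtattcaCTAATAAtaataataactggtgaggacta

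These stretches held 14, 6, 6, 5 and 2 matches, and their A/T content was 76.5%, 79.5%, 80%, 80% and 60%. The sites are called below by the distance of their midpoint from the annotated start of the gene. The first stretch stands apart by eye: the same 10-base block recurs at a fixed distance, while in the other stretches the matches are spaced irregularly.

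The strongest site of the region lay 191.9 kb into GPC6, in intron 1, at chr13:94070251-94071635. Its fold enrichment was 55.7 in the FL list, 77.0 in ∆HD, 84.1 in N-C1, 68.3 with camptothecin and 78.2 with ICRF-193. It was high in every list, at place 8 of the FL peaks, 6 of ∆HD, 1 of N-C1, 4 of camptothecin and 4 of ICRF-193. In the N-C1 list it shared the first place with a chromosome X peak (chrX:116225579-116231119), which had the same fold of 84.1. The N-C1 peak was 1329 bp wide, against a median of 334 bp over that list, and the chromosome X peak was 5541 bp wide. The site overlapped no ATAC peak, and the nearest peaks were 28.9 kb away in native cells and 18.1 kb away with Satb1 expressed.

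The site is a tandem array. Its 1385 bp held 41 consensus matches, which joined into 24 separate blocks, 17 of them 10 bp long and made of overlapping matches and 7 of them 7 bp long. Of the 23 distances between the starts of neighbouring blocks, 20 were exactly 30 bp, and the others lay between 27 and 33 bp. The array ran for 697 bp (chr13:94070602-94071298), its A/T content was 74.0%, and 89.5% of its bases were identical to the base 30 bp further on. Among the 76660 merged sites it ranked 3 by matches over the whole site and 6 by matches in the central 400 bp, where it held 20. The number of repeat copies is that of the reference genome, and the number in MCF10A cells was not measured. Whether the repeated sequence affected the mapping of reads there was not tested.

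Among the 10 N-C1 peaks with the largest fold over the genome, the number of matches in the central 400 bp ran from 1 to 20, and the GPC6 site had the most. A peak at chr15:28869921-28870829 had 1 match there and a fold of 82.2, so a high fold was also found with few matches.

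The strongest GPC5 site lay 105.7 kb into the gene in intron 2, at chr13:92156168-92157043. Its fold was 44.6 in FL, 19.4 in ∆HD, 47.3 in N-C1, 48.1 with camptothecin and 50.7 with ICRF-193. It stood at place 165 of the FL list, 520 of N-C1, 144 of camptothecin and 201 of ICRF-193, and at place 1836 of the ∆HD list, the lowest of the 5. The whole site held 9 matches, with gaps between neighbouring starts of 16 to 298 bp.

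The other sites named for a high N-C1 or FL fold differed in how they stood in the ∆HD list. In GPC6 intron 5, 1070.1 kb from the start (chr13:94948891-94949527), the fold was 28 in FL, 16.5 in ∆HD, 54.1 in N-C1, 24.4 with camptothecin and 33.3 with ICRF-193. This site stood 0.514% from the top of the N-C1 list, 3.18% in FL and 5.87% in ∆HD, and its 6 matches were 12 to 45 bp apart. In GPC5 intron 3, 299.0 kb from the start (chr13:92349606-92350189), the fold was 28.7 in FL, 10.7 in ∆HD, 22.4 in N-C1, 29.1 with camptothecin and 36.2 with ICRF-193. That site stood 3.01% from the top in FL and 17.8% in ∆HD. In GPC5 intron 7, 956.4 kb from the start (chr13:93007024-93007579), the fold was 19.7 in FL, 6.31 in ∆HD, 11.1 in N-C1, 19.5 with camptothecin and 26.3 with ICRF-193. It stood 7.56% from the top in FL and 51.0% in ∆HD. At these 3 sites the place in the ∆HD list was lower than in any other list.

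The remaining 2 sites of that group stood higher in the ∆HD list than in the FL list when place is given as percent from the top. That percent depends on list length, and the lists held 50537 (∆HD) and 22877 (FL) peaks. In GPC5 intron 2, 137.3 kb from the start (chr13:92187838-92188440), the fold was 18.4 in FL, 17.8 in ∆HD, 23.7 in N-C1, 14.6 with camptothecin and 24.3 with ICRF-193, with 2 matches 150 bp apart. It stood 8.78% from the top in FL, 4.67% in ∆HD and 4.18% in N-C1. By rank it was at place 2009 in FL and at the lower place of 2359 in ∆HD. In GPC6 intron 2, 508.0 kb from the start (chr13:94386739-94387438), the fold was 21.6 in FL, 27.1 in ∆HD, 32.2 in N-C1, 22.4 with camptothecin and 28.2 with ICRF-193, with 4 matches. It stood 6.06% from the top in FL, 1.08% in ∆HD and 2.19% in N-C1, and by rank at place 1386 in FL and 544 in ∆HD. A further site in GPC6 intron 4 (chr13:94887984-94888662), named after its values were seen, had a fold of 10.8 in FL and 23.9 in ∆HD and stood 24.5% and 1.70% from the top.

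**Figure D1:**
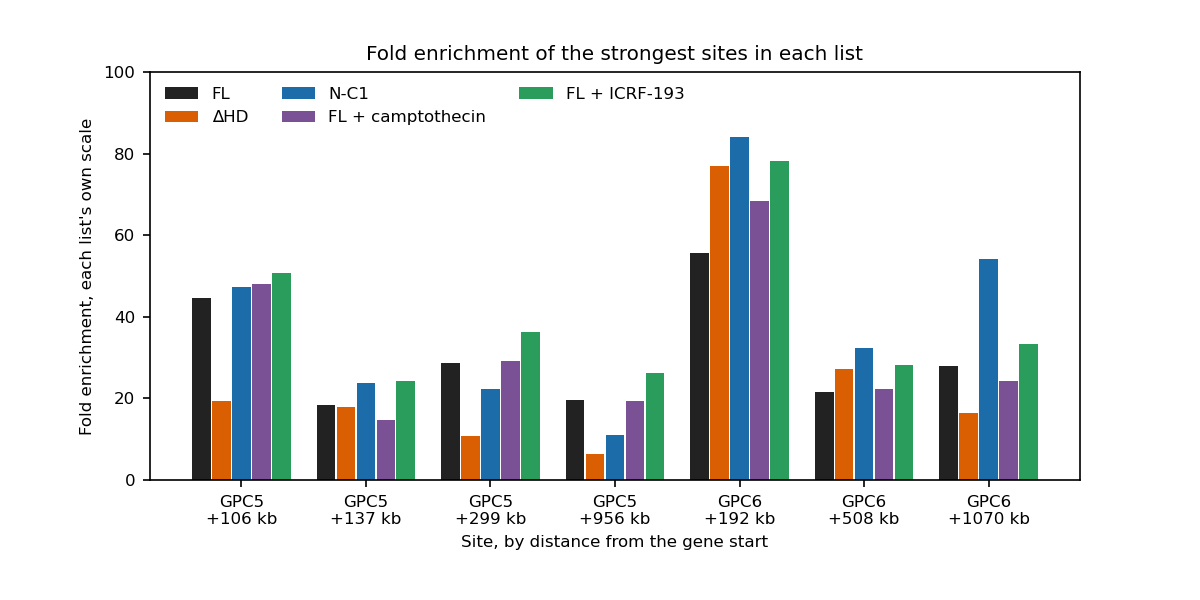
Fold enrichment (y axis, from 0, each list on its own scale) of the 7 sites with the largest N-C1 or FL fold in each window, with a bar for each of the 5 ChIP-seq lists and no replicates. The GPC6 site at 191.9 kb is the tallest in all 5 lists, and the ∆HD bar is the shortest of the 5 at GPC5 105.7, 299.0 and 956.4 kb and at GPC6 1070.1 kb.

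The central 200 bp were 77.5%, 82.5%, 81.5% and 80% A/T at the sites that stood lowest in ∆HD (GPC5 105.7, 299.0 and 956.4 kb, GPC6 1070.1 kb). They were 74.5% and 75% at GPC5 137.3 kb and GPC6 508.0 kb, 68.5% at the tandem array and 64% at the intron 4 site. These sites were named for their fold or after their values were seen, so their composition is a description only. The 40 sites found in all 5 lists were therefore divided by A/T content, with limits chosen after the values were seen, and described with and without the 8 sites above. For the 10 sites of 75% A/T or more, the median place was 9.63% from the top in FL, 10.6% in N-C1 and 32.5% in ∆HD, but 5 of the 10 are among the 8. The other 5 had medians of 36.9%, 20.0% and 39.4%, so the size of the gap between FL and ∆HD in this class rested on the sites already named. For the 8 other sites under 70%, the medians were 58.3% in FL, 17.9% in N-C1 and 22.3% in ∆HD, and for the 19 others between the limits they were 47.3%, 20.6% and 17.8%. Over all 16121 sites of the genome found in the 5 lists, the same medians were 33.9%, 15% and 23.7% at 75% A/T or more and 39.0%, 12% and 13.1% under 70%. Percent places depend on list length, so A/T classes are better compared within a list than FL with ∆HD. With the named sites left out, the ∆HD median was 39.4% at 75% A/T or more and 22.3% under 70%. The FL medians were 36.9% and 58.3%, the other direction. Over the genome each list moved the same way, with 23.7% and 13.1% in ∆HD and 33.9% and 39.0% in FL. None of these differences was tested.

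**Figure D2:**
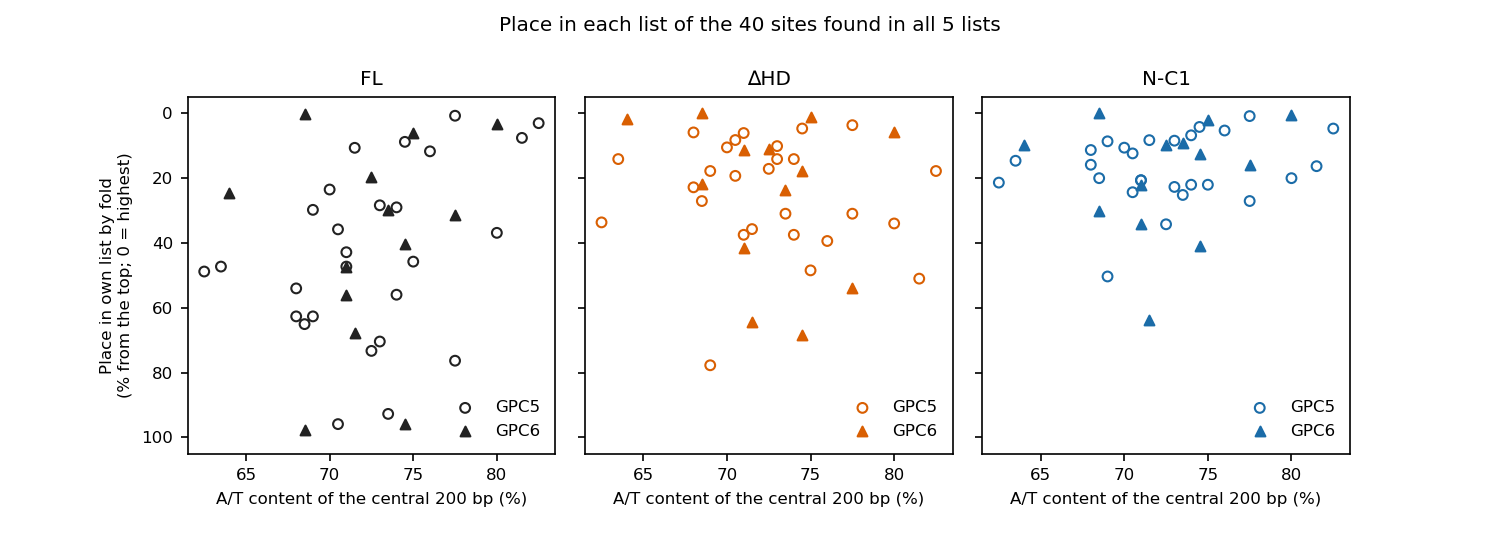
A/T content of the central 200 bp (x axis) and place in the list by fold (y axis, percent from the top, 0 is the highest) for the 40 GPC5 and GPC6 sites found in all 5 ChIP-seq lists, drawn for FL, ∆HD and N-C1. The 10 sites of 75% A/T or more have a median place of 9.63% in FL and 32.5% in ∆HD, and 36.9% and 39.4% without the 5 of them that were named for a large fold.

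Peaks were spread along both genes and were denser at GPC5. The FL list held 32 peaks in the GPC5 window and 17 in the GPC6 window, the ∆HD list 59 and 38, the N-C1 list 71 and 48, the camptothecin list 37 and 19, and the ICRF-193 list 56 and 29. The order of the lists depends on the threshold, since at a −log10 q of at least 10 N-C1 kept 46 peaks in both windows, fewer than ∆HD with 62. In the FL list this came to 19.1 peaks per Mb at GPC5 (95% exact Poisson interval 13.1 to 27.0, counting error only) and 12.3 at GPC6 (7.17 to 19.7). Chromosome 13 as a whole had 12.3 FL peaks per Mb and the genome 8.0. In the N-C1 list the density was 42.4 per Mb at GPC5 (33.1 to 53.5) and 34.8 at GPC6 (25.6 to 46.1), against 30.1 on chromosome 13 and 22 over the genome. The intervals at GPC5 and GPC6 overlapped in all 5 lists. In the 3 other lists the density was 22.1 and 13.8 with camptothecin, 33.4 and 21.0 with ICRF-193 and 35.2 and 27.5 in ∆HD.

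Long genes are rich in A/T, with a median of 61.8% against 59.1% over the genome, and the pair was therefore set among the 324 protein-coding genes of at least 500 kb, counting the gene bodies alone. GPC5 (1475 kb, 64.2% A/T) ranked 21 by FL peaks per Mb, with 19.7 against a median of 8.26, and 50 by N-C1 peaks, with 42.7 against a median of 25.3. GPC6 (1181 kb, 62.9% A/T) ranked 54 by FL peaks, with 14.4, and 93 by N-C1 peaks, with 35.6. Both had more Satb1 peaks than the median long gene, and both also ranked above the median in A/T content (58 and 110 of the 324) and in consensus matches per kb (73 and 98, with 1.11 and 1.06 against a median of 0.953). Neither gene was an extreme of the long genes by density: the highest had 41.2 FL peaks and 138.7 N-C1 peaks per Mb.

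**Figure D3:**
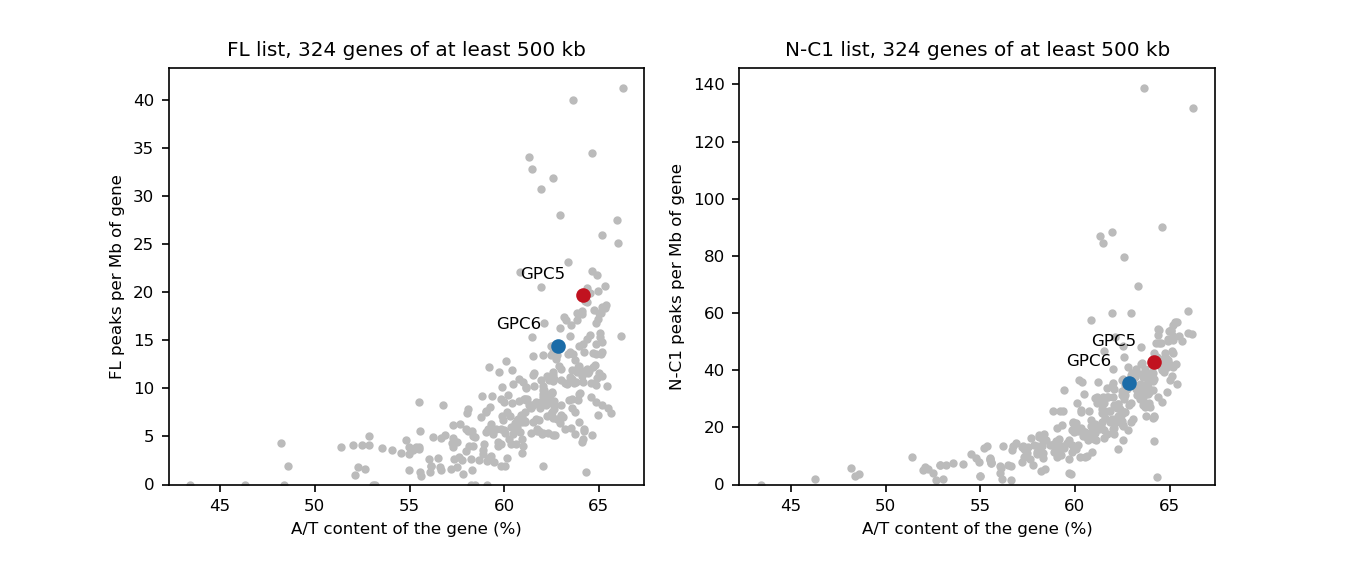
FL and N-C1 peaks per Mb of gene (y axes, linear) against A/T content of the gene (x axis) for the 324 protein-coding genes of at least 500 kb (grey points), with GPC5 in red and GPC6 in blue. Both genes lie on the A/T-rich side, GPC5 at 19.7 FL and 42.7 N-C1 peaks per Mb and GPC6 at 14.4 and 35.6.

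The 127 sites inside the gene bodies were all centred in introns of the canonical transcripts, 79 in GPC5 and 48 in GPC6, and 19 lay in the flanks. No site touched any of the 8 exons of GPC5 or the 9 exons of GPC6, which together make up 0.200% and 0.603% of the gene lengths. The largest intron of GPC5, intron 7 (721 kb), held 33 sites, intron 2 (244 kb) held 17 and intron 6 (237 kb) held 15. In GPC6 intron 2 (285 kb) held 14, intron 1 (318 kb) held 12 and intron 4 (258 kb) held 9. Among introns over 200 kb the density ran from 34.8 sites per Mb (GPC6 intron 4) to 69.6 (GPC5 intron 2). The longest stretch without a site was 130.7 kb, in GPC6 intron 4, while the longest in GPC5 was 65.6 kb. The median distance from a site to its nearest neighbour was 7.0 kb, and 92 of the 146 sites (63.0%) had another within 10 kb. The same share over the genome was not computed. Such distances depend on site density, which was 47.8 merged sites per Mb in the windows and 26.8 over the genome, and clustering was not tested. A site of all 5 lists, named after its values were seen, lay at the very start of GPC6 intron 6 (chr13:94958392-94958793, where the intron begins at base 94958378), and its fold ran from 5.01 with camptothecin to 9.34 in N-C1.

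**Figure D4:**
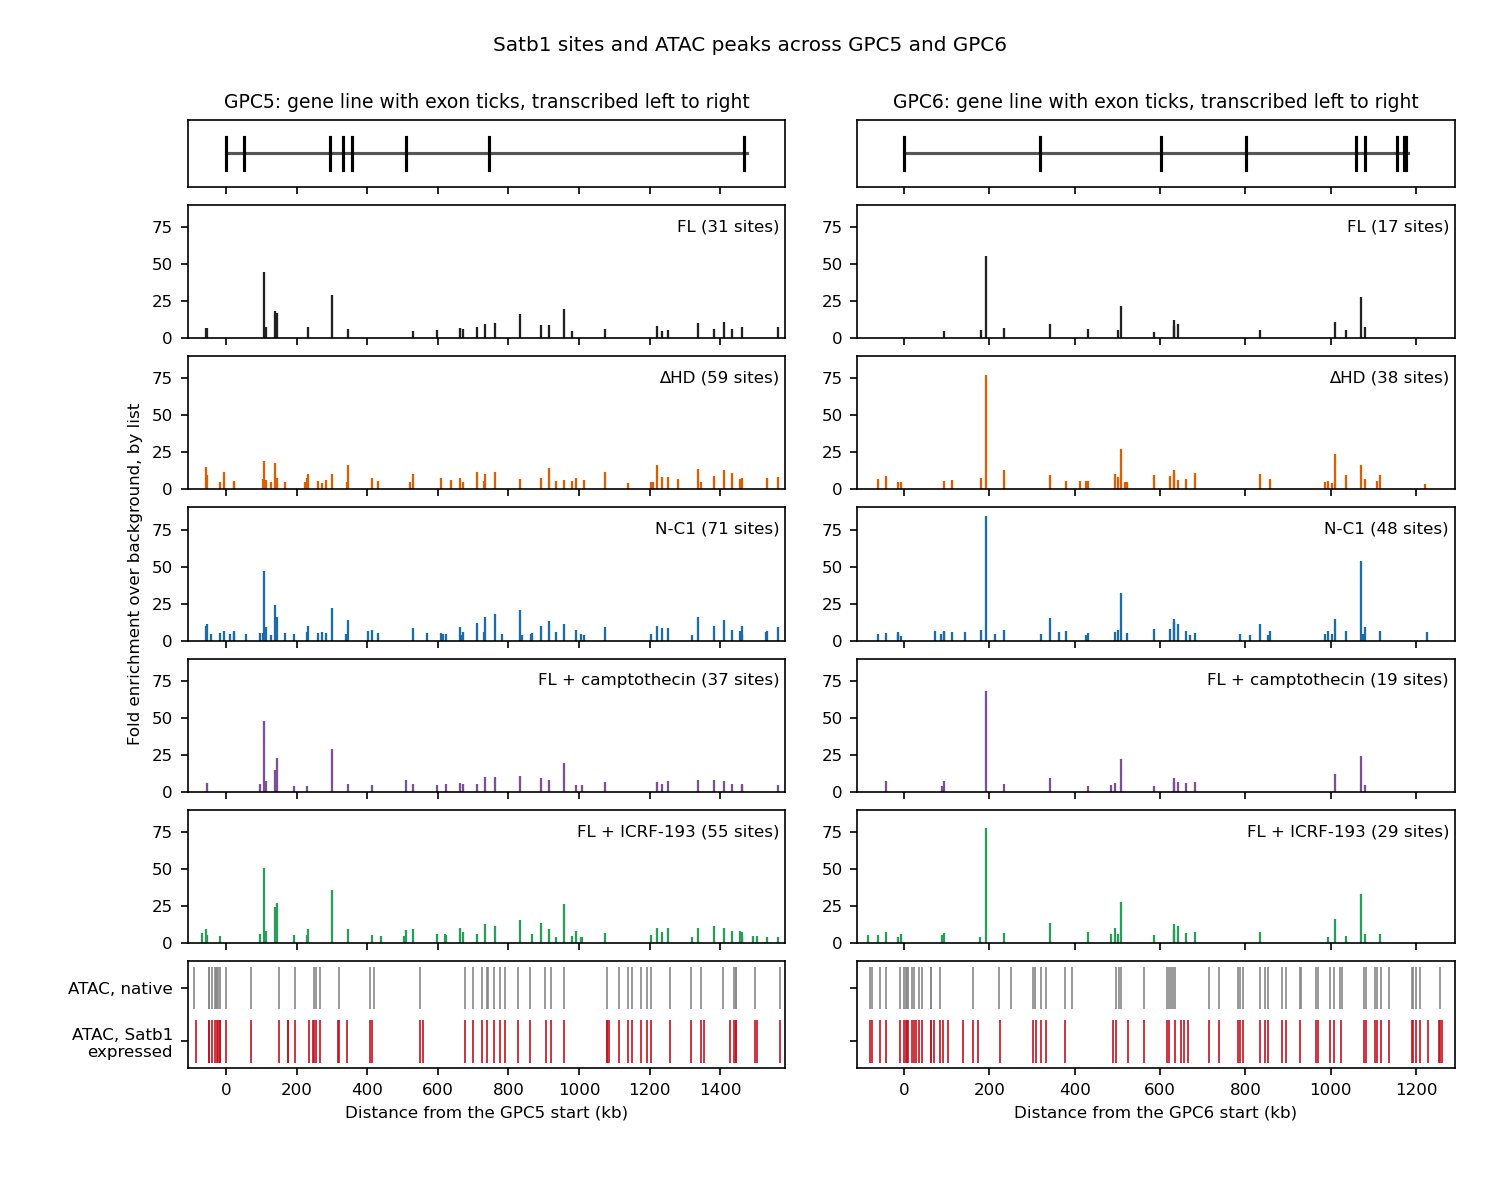
Fold enrichment of each merged site (y axes, linear, 0 to 90; the strongest peak where a site holds several) by distance from the gene start in kb (x axes) for the 5 ChIP-seq lists, with exon ticks above and ATAC peaks as ticks below. The GPC6 site at 191.9 kb and the GPC5 site at 105.7 kb are the tallest of their windows in all 5 lists, and sites are found through nearly all introns.

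Other transcripts share the windows. MIR17HG, the host transcript of the miR-17-92 cluster, lies just before GPC5 and held 3 sites, GPC5-AS2 held 3, GPC5-AS1 held 1, an unnamed gene inside GPC5 (ENSG00000287159) held 3 and DCT, the melanocyte enzyme dopachrome tautomerase next to GPC6, held 2. In total, 12 of the 146 sites overlapped another annotated gene. Between the windows, 218.0 kb past the end of GPC5 and 135.1 kb before GPC6, lay a strong intergenic site (chr13:93743293-93744658) of 84% A/T with 14 matches. Its fold was 50.6 in FL, 9.25 in ∆HD, 43.0 in N-C1, 56.7 with camptothecin and 68.0 with ICRF-193, and it is not counted among the 146. At the window limits themselves, the last sites inside were weak, with folds between 4.60 and 9.51, and the first sites outside had folds between 4.60 and 5.94.

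The sites differed in how many lists held them. Of the 146 sites, 40 were found in all 5 lists, which is 27.4% (95% exact Clopper-Pearson interval 20.3 to 35.4), against 21.0% of all merged sites. A further 61 were found only with a construct, in N-C1, ∆HD or both, which is 41.8% (33.7 to 50.2) against 47.9%. Another 12 were found only in the drug lists, which is 8.22% (4.32 to 13.9) against 5.88%. None of the 49 FL peaks and none of the 56 camptothecin peaks stood alone in a list, and over the genome 26 FL and 262 camptothecin sites of 76660 did. The N-C1 list alone held 27 sites (18.5%, 12.6 to 25.8, against 20.8% of all merged sites), ∆HD alone 13 (8.90%, 4.83 to 14.7, against 10.2%) and ICRF-193 alone 8 (5.48%, 2.40 to 10.5, against 4.44%).

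Sites of these classes had unlike composition. The central 200 bp of the 40 sites in all 5 lists were 72.5% ± 4.54 A/T (SD over sites), those of the 61 construct sites 68.9% ± 4.53 and those of the 12 drug sites 77.4% ± 2.13. Over the genome the same means were 72.4%, 68.9% and 77.1%, so the classes at GPC5 and GPC6 followed the lists as a whole. The central 400 bp held a mean of 3.40, 2.00 and 1.92 matches, against 2.84, 1.85 and 2.15 over the genome. The mean of the first class rests in part on the tandem array with its 20 matches, and its median was 3 in both the windows and the genome.

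Sites that stood in a single list had folds of at most 6.75. The strongest found in N-C1 alone had a fold of 6.39 in both genes, in GPC5 intron 5 (chr13:92451957-92452447) and in GPC6 intron 1 (chr13:93952009-93952331). The strongest in ∆HD alone had folds of 6.69 in GPC5 intron 7 (chr13:93332711-93333089) and 5.94 in GPC6 intron 6 (chr13:94986997-94987375). The strongest in ICRF-193 alone had folds of 6.75, 68.4 kb upstream of GPC5 (chr13:91982317-91982622), and 5.77, 85.6 kb upstream of GPC6 (chr13:93793288-93793575). The ∆HD and ICRF-193 sites lay below the median fold of their own list in the windows, 7.45 and 7.14, and the N-C1 sites lay just above theirs, 6.04.

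The FL peaks of the windows were nearly all held by the other lists. Of the 49 FL peaks, 47 (95.9%, interval 86.0 to 99.5) shared at least 1 bp with a ∆HD peak and 47 with an N-C1 peak, against 88.6% and 95.2% of the whole FL list. After camptothecin 42 were held (85.7%, 72.8 to 94.1, against 81.7%), and after ICRF-193 48 were held (98.0%, 89.1 to 99.9, against 92.9%). The 2 FL peaks missing from both construct lists lay in GPC5, in intron 6 (chr13:92649110-92649413, FL fold 5.27) and intron 7 (chr13:93029779-93030134, FL fold 5.0), and both were in the ICRF-193 list. These were named after their values were seen, and they were 77.5% and 76.0% A/T.

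In the other direction fewer peaks were shared. Of the 97 ∆HD peaks, 46 were also FL peaks (47.4%, 37.2 to 57.8, against 39.9% of the list), and of the 119 N-C1 peaks, 46 were (38.7%, 29.9 to 48.0, against 34.6%). With camptothecin 41 of 56 were FL peaks (73.2%, 59.7 to 84.2, against 76.1%), and with ICRF-193 47 of 85 (55.3%, 44.1 to 66.1, against 56.7%). The constructs shared 84 peaks with each other, which is 70.6% of the N-C1 peaks (against 66.9%) and 86.6% of the ∆HD peaks (against 82.6%). All 56 camptothecin peaks were also ICRF-193 peaks (against 94.0% of the list), while 56 of the 85 ICRF-193 peaks, 65.9%, were camptothecin peaks (against 61.4%). In every comparison of this kind the interval held the share of the whole list.

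The number of consensus matches was read in the central 400 bp of each peak. FL peaks in the windows held 3.24 ± 2.80 matches (mean ± SD over 49 peaks, 2.75 over the whole list), ∆HD peaks 2.65 ± 2.12 (97 peaks, 2.24), N-C1 peaks 2.50 ± 2.00 (119 peaks, 2.24), camptothecin peaks 3.13 ± 2.84 (56 peaks, 2.73) and ICRF-193 peaks 2.79 ± 2.29 (85 peaks, 2.53). The tandem array weighs on these means, which without it were 2.90, 2.48, 2.36, 2.80 and 2.58. With the narrower consensus, CTAATA followed by A or G, the means took another order, with 0.694 in FL, 0.825 in ∆HD and 0.748 in N-C1. All 49 FL peaks held at least 1 match (100%, interval 92.7 to 100, against 96.6% of the whole list), as did 94 of the 97 ∆HD peaks (96.9%, 91.2 to 99.4, against 93.7%) and 115 of the 119 N-C1 peaks (96.6%, 91.6 to 99.1, against 94.5%). Each interval held the share of its whole list.

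In the windows the median fold changed little from 1 to 3 matches and was highest at 5 or more. FL peaks with 1, 2, 3 and 4 matches had median folds of 7.33 (7 peaks), 6.78 (13), 7.46 (15) and 8.35 (8), and the 6 FL peaks with 5 or more had a median of 28.4 and a range of 9.65 to 55.7. In the N-C1 list the medians were 5.87 (19 peaks), 5.52 (49), 6.39 (32) and 9.86 (9), and the 6 peaks with 5 or more had a median of 34.8, ranging from 5.87 to 84.1. In the ∆HD list the 8 peaks with 5 or more had a median of 13.6, ranging from 6.69 to 77.0. Over the whole lists the median rose at each step from 1 match upward. From 1 to 4 matches it went from 6.50 to 8.28 in FL, from 5.35 to 7.60 in N-C1 and from 5.89 to 8.02 in ∆HD. The 781 FL peaks without a match had a median of 6.78, above those with 1 match (6.50) and with 2 (6.73). In N-C1 and ∆HD the medians without a match, 5.18 and 5.83, lay below those with 1. Whole-list peaks with 5 or more matches had medians of 13.6 in FL, 13 in N-C1 and 10.5 in ∆HD. In the windows these bins are small, and the high medians of FL and N-C1 rest on the GPC6 sites at 191.9 and 1070.1 kb and the GPC5 sites at 105.7 and 299.0 kb. The GPC6 site at 191.9 kb is the one for which the pair was chosen, so the medians are a description only.

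**Figure D5:**
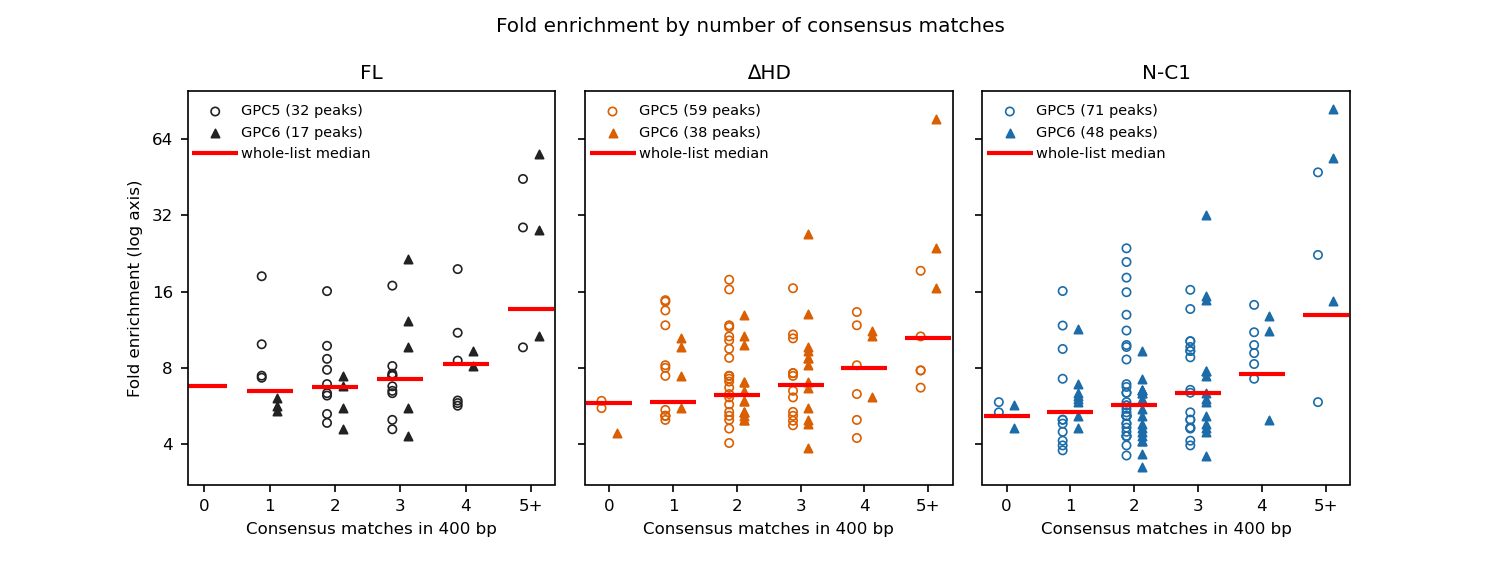
Fold enrichment (y axis, log scale) of the FL, ∆HD and N-C1 peaks in the GPC5 (open circles) and GPC6 (filled triangles) windows by number of consensus matches in the central 400 bp (x axis), with the median of the whole list as a red bar. Peaks with 1 to 4 matches scatter about the red bars, and in FL and N-C1 the peaks with 5 or more have medians of 28.4 and 34.8, against 13.6 and 13 over the lists. Those window medians include the GPC6 site at 191.9 kb, for which the pair was chosen.

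The windows held many more matches than peaks. There were 1874 matches in the GPC5 window (1.12 per kb) and 1457 in the GPC6 window (1.05 per kb), against 0.974 per kb on chromosome 13 and 0.818 over the genome. Of these 3331 matches, 177 lay in an FL peak (5.31%, against 2.73% of the 2339362 matches of the genome) and 335 in an N-C1 peak (10.1% against 6.11%). These counts include the tandem array, for which the pair was chosen. Without it, 136 of 3290 matches lay in an FL peak (4.13%) and 294 in an N-C1 peak (8.94%). The share rose with the number of matches within 200 bp. Of the 1928 matches with no other nearby, 9 lay in an FL peak (0.467%, genome 0.291%) and 29 in an N-C1 peak (1.5%, genome 1.19%). With 3 matches together, 40 of 280 lay in an FL peak (14.3%, genome 11.2%) and 89 in an N-C1 peak (31.8%, genome 25.1%). With 5 or more, 70 of 84 lay in an FL peak (83.3%, genome 69.6%) and 75 in an N-C1 peak (89.3%, genome 74.5%). Without the tandem array these last counts were 29 and 34 of 43, or 67.4% and 79.1%. Neighbouring matches are not independent, since those of a peak fall together.

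Peak width could not be compared between lists, because the narrowest peak allowed differed (219 bp in FL, 307 bp in ∆HD, 242 bp in N-C1 and 250 bp in both drug lists). Within a list the windows were close to the whole, with medians of 326 and 314 bp in FL, 464 and 428 bp in ∆HD and 327 and 334 bp in N-C1. The widest peak of the windows was the tandem array in every list, from 1114 bp in ∆HD to 1385 bp with ICRF-193.

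Almost no Satb1 site of the windows lay in DNA that ATAC-seq marked as accessible. Of the 49 FL peaks, 1 shared a base with a native ATAC peak (2.04%, interval 0.0517 to 10.9), against 3.42% of the whole FL list, and 1 with an ATAC peak of Satb1-expressing cells, against 4.64%. Of the 97 ∆HD peaks, 2 overlapped each ATAC list (2.06%, 0.251 to 7.25), against 4.60% and 5.46%. Of the 119 N-C1 peaks, 2 overlapped the native list (1.68%, 0.204 to 5.94, against 3.73%) and 3 the other (2.52%, 0.523 to 7.19, against 4.35%). None of these peaks had its summit inside an ATAC peak. At this number of peaks the shares could not be told apart from those of the whole lists. They also lay near the part of the window length that ATAC peaks covered, 1.89% in native cells and 2.37% with Satb1 expressed. The median distance from a site to the nearest ATAC peak was 10.3 kb in native cells and 6.14 kb with Satb1 expressed.

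The accessible sites were 4. The strongest was the GPC5 intron 7 site at 956.4 kb, which shared 103 bp with a native ATAC peak of fold 6.11 and 106 bp with a peak of fold 5.20 in Satb1-expressing cells, and which also lies within the antisense transcript GPC5-AS2. An N-C1 site in GPC6 intron 2 (chr13:94199885-94200131, fold 4.83) met ATAC peaks of fold 2.38 and 2.82. A site 16.7 kb upstream of GPC5 in MIR17HG (chr13:92033951-92034381), held by ∆HD, N-C1 and ICRF-193, shared 51 bp with a peak of fold 2.01 in Satb1-expressing cells only. A ∆HD site in GPC5 intron 7 (chr13:93397869-93398198) shared 3 bp with a native peak of fold 4.93. The overlaps therefore lay at the edges of sites that were mostly weak, and the tandem array and the strongest GPC5 site were not among them.

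The windows themselves were poor in accessible DNA. ATAC peaks covered 1.89% of their length in native cells and 2.37% with Satb1 expressed, against 5.76% and 8.95% of the genome. GPC6 had 45.6 native peaks per Mb and GPC5 29.3, against 61.6 over the genome. Counted over gene bodies, GPC5 ranked 235 and GPC6 131 of the 324 long genes by native ATAC peaks per Mb. GPC5 thus combined a high place by Satb1 peaks with a low place by ATAC peaks, while GPC6 stood near the middle by ATAC peaks.

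Both gene starts were accessible and both were free of Satb1 sites within 1 kb. The ATAC peak at the GPC6 start was 3304 bp wide with a fold of 21.5 in native cells (place 8011 of 175989) and 3234 bp wide with a fold of 15.8 in Satb1-expressing cells (place 7598 of 206170). The peak at the GPC5 start was 681 bp wide with a fold of 8.35 (place 45374) and 568 bp wide with a fold of 6.83 (place 38931). The start of MIR17HG next to GPC5 had folds of 17.1 and 17.3. Accessibility of a start does not show whether the gene was transcribed, and RNA was not analysed here. The 250 bases before each start are shown in hg19, with consensus matches in capitals, for GPC5 (chr13:92050625-92050874) and GPC6 (chr13:93878810-93879059).
GPC5 promoter: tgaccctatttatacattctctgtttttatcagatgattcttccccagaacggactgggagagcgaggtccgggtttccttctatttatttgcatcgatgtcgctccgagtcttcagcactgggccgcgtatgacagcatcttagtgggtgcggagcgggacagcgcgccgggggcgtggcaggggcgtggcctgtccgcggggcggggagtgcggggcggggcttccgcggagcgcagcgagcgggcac
GPC6 promoter: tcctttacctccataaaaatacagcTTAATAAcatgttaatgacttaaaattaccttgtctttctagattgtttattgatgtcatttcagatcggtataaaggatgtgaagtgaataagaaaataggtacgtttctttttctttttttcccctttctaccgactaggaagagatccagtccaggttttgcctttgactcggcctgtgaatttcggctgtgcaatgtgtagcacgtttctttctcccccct

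The GPC5 promoter was 37.6% A/T and held no match, and the GPC6 promoter was 62.4% A/T and held 1. Over all protein-coding genes, 926 of 19515 stretches of this length before the canonical start held a match, or 4.75%. The Satb1 sites nearest to the starts lacked an FL peak. The site 6.8 kb before GPC5 had folds of 11.6 in ∆HD and 6.74 in N-C1, and the site 7.1 kb before GPC6 had folds of 5.18 in ∆HD, 3.27 in N-C1 and 6.16 with ICRF-193.

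The ATAC lists of native and Satb1-expressing cells were largely the same in the windows. Of the 112 native peaks, 98 were also found with Satb1 expressed (87.5%, 79.9 to 93.0, against 88.8% of the whole list), and of the 128 peaks with Satb1 expressed, 97 were found in native cells (75.8%, 67.4 to 82.9, against 70.2%). The 14 peaks of the native list alone had folds of 2.18 to 4.22, and the 31 peaks of the other list alone had folds of 1.87 to 3.64, well under the strongest shared peaks. In native cells the strongest accessible region of the GPC6 window lay in intron 2 (chr13:94255100-94255856, fold 23.9), and that of the GPC5 window lay near the end of intron 7 (chr13:93490962-93491599, fold 18). With Satb1 expressed the strongest of the GPC6 window lay 56.6 kb upstream of the gene (chr13:93822017-93822824, fold 17.8, 18.2 in native cells), and that of the GPC5 window was the start of MIR17HG. None of them held a Satb1 site.

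GPC5 and GPC6 were finally set among the genes that build and carry heparan sulfate, each with the same 100 kb on either side. The list had 34 other genes, of which 28 had an FL peak, 30 a ∆HD peak, 31 an N-C1 peak, 24 a camptothecin peak and 26 an ICRF-193 peak. The share of all protein-coding genes with a peak in such a window was not computed. These counts therefore do not show that the list was bound more often than other genes. Over the whole genome the density was 8.0 FL and 22 N-C1 peaks per Mb. The median density over these genes was 4.70 FL and 15 N-C1 peaks per Mb, against 19.1 and 42.4 at GPC5 and 12.3 and 34.8 at GPC6. Among the other glypicans GPC3 had 2 FL and 7 N-C1 peaks, GPC4 had 0 and 3, GPC1 had 1 and 0, and GPC2 had none in any ChIP list. All of these glypican genes are shorter and poorer in A/T than GPC5 and GPC6, from 35.4% in GPC1 to 60.3% in GPC3.

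Of the syndecans, the other family of cell-surface heparan sulfate proteoglycans, SDC2 had the most N-C1 peaks with 9, and the others had 1 to 4. Among the EXT-family glycosyltransferases that start and extend the chains, EXTL2 had the largest N-C1 fold of the 34 genes, 64.9, which is below that of the GPC6 tandem array. The modifying enzymes included the densest gene of the list, HS6ST3, a 6-O-sulfotransferase that also lies on chromosome 13, with 27 FL peaks (28.4 per Mb) and 50 N-C1 peaks (52.7 per Mb). By N-C1 density, NDST4 on chromosome 4 (39.1 peaks per Mb) and HS3ST5 on chromosome 6 (36.9) came below GPC5 and above GPC6. The endosulfatases SULF1 and SULF2, which remove 6-O-sulfates, had 10 and 1 N-C1 peaks, and NOTUM, an enzyme known to act on Wnt ligands, had 1. GPC5 was thus second to HS6ST3 by density in the FL and N-C1 lists, and the largest N-C1 and FL folds of the list, 84.1 and 55.7, were those of GPC6, the value for which the pair was chosen.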

How the data were processed

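ChIP-seq peak lists of 5 MCF10A conditions and ATAC-seq lists of 2 were used, 1 per condition, out of 20 samples. The inputs, the N construct, TMP-seq and mouse lists were not used here. Reads were trimmed by the authors (cutadapt) and mapped to hg19 (Bowtie2), and peaks were called with MACS2 (per the submitters' processing notes), ChIP-seq against input DNA and ATAC-seq as broad peaks. In the deposited lists fold enrichment is a ratio of pileup to local background, computed by the authors, and the deposited −log10 q-value is that of MACS2. Pooling of duplicates is not stated and the depth of each list is unknown, and either would change peak numbers and folds.

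Peaks sharing at least 1 bp across the 5 ChIP lists were merged into sites, whose fold in a list is that of its strongest peak. Places are ranks by fold, with ties sharing a place. Consensus matches were counted in 400 bp and A/T content in 200 bp around the midpoint, with GENCODE release 44 on GRCh37. Intervals are 95% exact intervals and cover counting error only. Overlap and match counting were tested on simulated data, with 0 differences from bedtools 2.31.1 over 3000 intervals (Python 3.11.15, pysam 0.24.0, scipy 1.17.1).

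Named sites were, in each window, the 3 with the largest N-C1 fold, the 3 with the largest FL fold, the site with the most matches, each site meeting an ATAC peak, an exon or the 1 kb around a start, and the strongest site found in each list alone. The genes, sites and gene lists were chosen with earlier results of these data known. Alternatives were a minimum fold of 5, a −log10 q of at least 10 (ATAC, 5), gene bodies alone, merging within 500 bp, reciprocal overlap of 50%, other match windows and a narrower consensus.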

Additional observations from a re-analysis of the deposited data

How the results depend on the processing

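No paired analysis was possible because each condition had 1 list. Of 67 alternatives, 43 stayed within 1.5 times the count, within the interval of the share or within the error of the mean. A −log10 q of at least 10 lowered the peaks of both windows to 29 in FL, 62 in ∆HD, 46 in N-C1, 27 with camptothecin and 48 with ICRF-193, so N-C1, first by number of peaks at the threshold of the lists, fell below ∆HD and ICRF-193. A minimum fold of 5 raised the share of N-C1 peaks also in FL to 48.8%. A reciprocal overlap of 50% lowered the share of FL peaks in ∆HD to 71.4% and that of ∆HD peaks in FL to 36.1%. In 150 bp the mean matches were 2.04 in FL, 1.67 in ∆HD, 1.56 in N-C1, 1.80 with camptothecin and 1.61 with ICRF-193, since the window was shorter. With the narrower consensus they were 0.694, 0.825, 0.748, 0.696 and 0.694, since fewer words count, and FL then stood below ∆HD and N-C1 where it had stood above them. With the summit required inside the ATAC peak, the accessible share was 0% in FL, ∆HD and N-C1 for both ATAC lists, against 1.68% to 2.52%. Counting overlapping matches once, or leaving out the tandem array, both added after seeing the data, kept the mean matches within their error. Lists without depth limit every count, and absence from a list does not show absence of binding.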
